A study of Mus musculus with 8 samples.

Results

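The chemokines that draw monocytes into tissue, and the receptors that monocytes use to follow them, were described in the pancreas of lean and obese mice. The set held 9 genes of the 15047 gene symbols in the deposited table, 6 ligands (Ccl2, Ccl7, Ccl8, Ccl12, Ccl3 and Cx3cl1) and 3 receptors (Ccr1, Ccr2 and Cx3cr1), taken by symbol, and every symbol was found. These genes were selected on a view of their rlog values in the same 8 mice, so the differences between groups given for them are descriptions and support nothing beyond themselves. RNA-Seq had been made from pancreas of 8 male mice, 3 C57BL/6 WT mice on a low-fat diet (LFD), 3 C57BL/6 WT mice on a high-fat diet with 60% of its calories from fat (HFD), and 2 leptin-deficient C57BL/6J; ob/ob mice on standard chow. All 3 groups were set up when the mice were 4 weeks old, and LFD and HFD feeding lasted 10 weeks. The study describes the same 8 animals as carrying orthotopic transplants of mT organoids, cultures of tumour cells grown as small hollow structures from a mouse model of pancreatic cancer driven by Pdx1-Cre, whereas the sample labels name pancreas alone. All 3 groups shared that transplant, and no mouse without it was analysed here, so tumour, host pancreas and infiltrate lie in the same RNA. The ob/ob mice differed from the LFD mice in both leptin gene and chow, and the mutant allele still makes a transcript, so the level of Lep does not check their label.

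Chemokines are small secreted proteins that bind receptors with G proteins behind them on leukocytes and set the direction in which these cells move. Ccl2, Ccl7 and Ccl12 are monocyte chemoattractant proteins that act on Ccr2, the receptor that lets inflammatory monocytes leave the bone marrow and enter tissue. Ccl8 belongs to the same subfamily by sequence, and the mouse protein is best known as a ligand of Ccr8. Ccl3 acts on Ccr1, and Ccl7 also binds Ccr1. Cx3cl1, called fractalkine, is made as a membrane protein with its chemokine domain on a stalk, is cut free by Adam10 and Adam17, and is the ligand of Cx3cr1 on patrolling monocytes and on many tissue macrophages. In pancreatic tumours the Ccl2 and Ccr2 pair is known as a route by which monocytes become tumour macrophages.

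The cysteines near the start of the mature protein divide these ligands into families, CC where they touch and CX3C where other residues part them. The coding stretch around them is shown for the 6 ligands because it separates the CC genes from Cx3cl1, with cysteine codons in capitals, 5′ to 3′ on the coding strand, read from Gencode M21 transcripts on GRCm38.
Ccl2, chr11:82036491-82036535, plus strand: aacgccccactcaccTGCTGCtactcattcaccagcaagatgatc
Ccl7, chr11:82046523-82046567, plus strand: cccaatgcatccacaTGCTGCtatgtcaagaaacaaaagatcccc
Ccl8, chr11:82116041-82116085, plus strand: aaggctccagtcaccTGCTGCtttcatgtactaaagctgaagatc
Ccl12, chr11:82102619-82102663, plus strand: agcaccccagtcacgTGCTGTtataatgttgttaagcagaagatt
Ccl3, chr11:83648628-83648672, minus strand: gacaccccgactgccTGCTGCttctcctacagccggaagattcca
Cx3cl1, chr8:94778036-94778089, plus strand: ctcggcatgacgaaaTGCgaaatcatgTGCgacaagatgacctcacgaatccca
All 6 stretches lie in coding exon sequence, each within exon 2 of 3. The cysteine codons were adjacent in the 5 CC ligands and stood 3 codons apart in Cx3cl1, which also has the longest coding sequence of the 6, 395 codons against 92 to 148. Over the aligned coding bases, the 4 monocyte chemoattractant genes were 63.8% to 70.5% identical to each other, with Ccl8 and Ccl12 closest, and 52.7% to 62.1% identical to Ccl3.

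Reads of relatives can be confused when genes are this alike, so shared words of 31 bases, the default length of the read index of Salmon, were counted in the transcripts. None of the words of the 6 ligands occurred in a transcript of another gene. Ccr1 shared 0.642% of its words with other genes, nearly all of them with Ccr3, and Ccr2 shared 3.48%. Cx3cr1 shared 3.28% over many genes, and its annotated span overlaps other genes on both strands, among them Wdr48, Gorasp1 and Csrnp1, which are also in the table. Whether the libraries kept the strand is not stated, so reads of Cx3cr1 and of overlapping genes on the opposite strand may not be separable. The span of Ccl2 overlaps Gm17268 on the opposite strand, but no word of Ccl2, read on either strand, occurred in a transcript of another gene.

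The deposited values are rlog values, counts on the log2 scale corrected for library size and shrunken between mice where a gene has few reads. A step of 1 is a doubling, and differences of poorly covered genes are understated. Counts were not used here and sequencing depth is unknown, so errors reflect the spread between mice alone. The medians of the mice lay between 7.09 and 7.25 and the correlation between pairs of mice between 0.884 and 0.982. Differences between groups come from limma fitted over all genes and all 8 mice, given as difference ± standard error (SE), and a gene was called at a Benjamini-Hochberg adjusted p under 0.05. The HFD mice, the ob/ob mice and the mean of both obese groups were each compared with the LFD mice, and the ob/ob mice with the HFD mice. No gene was called in any of these comparisons (0% of all genes each time). The study, which tested counts with DESeq2, did show genes with an adjusted p under 0.05 between obese and lean mice. The lack of calls here thus holds for limma on rlog values. At an unadjusted p under 0.05, the HFD mice had 1728 genes higher (11.5%) and 1257 lower (8.35%) than LFD mice, and the ob/ob mice 1751 higher (11.6%) and 1080 lower (7.18%). Between the obese groups, 343 genes were higher (2.28%) and 245 lower (1.63%) in ob/ob mice, and the mean of both had 2186 genes higher (14.5%) and 1639 lower (10.9%) than LFD mice.

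All 9 genes had higher means in HFD and in ob/ob than in LFD mice. The differences from LFD were 1.04 to 1.56 in HFD and 0.77 to 2.55 in ob/ob mice, with Cx3cr1 and the Ccr2 ligands Ccl12 and Ccl7 leading in ob/ob. With limma, adjusted p-values of the 9 genes were 0.160 to 0.343 for HFD and 0.135 to 0.462 for ob/ob. Both comparisons used the same 3 LFD mice, so they are not independent. Every HFD mouse lay above every LFD mouse in 7 of the 9 genes, a separation seen in 12.9% of all genes, and both ob/ob mice did so in 9 of 9, against 24.1% of all genes. The values had been seen when the genes were picked, so nothing is read from these shares.

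**Figure D1:**
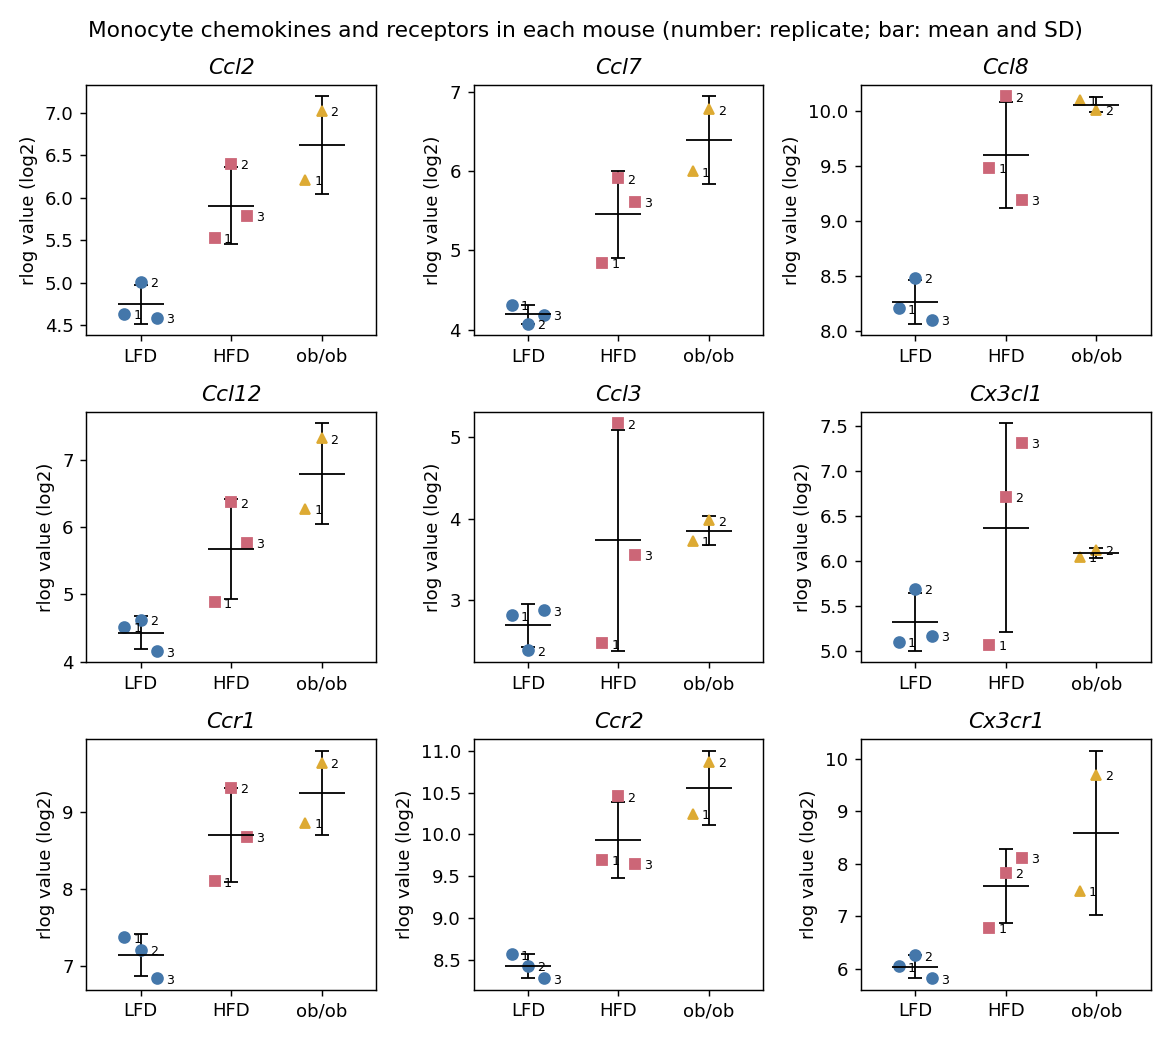
rlog values on the log2 scale (vertical axis, a separate scale for each gene) of the 9 genes in LFD, HFD and ob/ob mice (horizontal axis). Points are mice marked with their replicate number, the long bar is the group mean and the whiskers are the SD. All obese mice lie above all LFD mice in 7 panels, and in the Ccl3 and Cx3cl1 panels HFD replicate 1 lies among or below the LFD mice.

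Among the ligands of Ccr2, Ccl2 (MCP-1) had rlog values of 4.64, 5.01 and 4.59 in the 3 LFD mice, 5.52, 6.40 and 5.79 in the 3 HFD mice, and 6.21 and 7.02 in the 2 ob/ob mice, each group in the order of its replicate numbers, as for the genes that follow. Each of the 5 obese mice exceeded the highest LFD mouse, and the HFD and ob/ob ranges overlapped. LFD mice averaged 4.74 ± 0.23 (SD, n = 3), HFD mice 5.90 ± 0.45 (SD, n = 3) and ob/ob mice 6.61 ± 0.58 (SD, n = 2), which gave differences from LFD of 1.16 ± 0.33 (SE) and 1.87 ± 0.37 (SE). These are 2.23 and 3.65 times the LFD level on the rlog scale.

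Ccl7 (MCP-3), the next gene downstream of Ccl2 on the chromosome, had values of 4.32, 4.08 and 4.19 in LFD, 4.84, 5.91 and 5.61 in HFD, and 6.00 and 6.78 in ob/ob mice. It was the single gene of the 9 in which the groups were fully ordered, with every LFD mouse below every HFD mouse and every HFD mouse below both ob/ob mice, although the gap between the highest HFD and the lowest ob/ob mouse was small beside the HFD spread. The difference of ob/ob from HFD was 0.94 ± 0.39 (SE), and 7.92% of all genes had both ob/ob mice above all HFD mice. Against LFD, Ccl7 was 1.26 ± 0.35 (SE) higher in HFD and 2.20 ± 0.39 (SE) higher in ob/ob mice.

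Ccl12 (MCP-5), a Ccr2 ligand of the mouse, had values of 4.52, 4.63 and 4.16 in LFD, 4.88, 6.37 and 5.76 in HFD, and 6.27 and 7.33 in ob/ob mice. HFD replicate 1 exceeded the highest LFD mouse by 0.26, the smallest such margin among the 7 genes that separated obese from LFD mice. Ccl12 had the largest ob/ob difference of the ligands, 2.37 ± 0.48 (SE), place 22 from the top among all genes, and an HFD difference of 1.24 ± 0.43 (SE).

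Ccl8 (MCP-2) had values of 8.21, 8.49 and 8.10 in LFD, 9.48, 10.13 and 9.19 in HFD, and 10.10 and 10.01 in ob/ob mice. It differed from the other 3 of its subfamily in that both ob/ob mice were alike, 0.094 apart on the log2 scale, where Ccl2, Ccl7 and Ccl12 were 0.81, 0.79 and 1.06 higher in ob/ob replicate 2 than in replicate 1. HFD replicate 1 stood 0.99 above the highest LFD mouse. The differences from LFD were 1.34 ± 0.24 (SE) in HFD and 1.79 ± 0.27 (SE) in ob/ob mice, with the smallest standard errors of the 6 ligands. Ccr8, its best known receptor, is not among the 15047 gene symbols, so it has no value here.

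Ccl3 (MIP-1 alpha), which acts on Ccr1, had values of 2.81, 2.38 and 2.87 in LFD, 2.46, 5.17 and 3.56 in HFD, and 3.72 and 3.98 in ob/ob mice. The HFD mice covered 2.71 on the log2 scale, the widest range of any of the 9 genes in that group, with replicate 1 inside the LFD range and replicate 2 above both ob/ob mice. Ccl3 was also the single gene of the 9 with a mean over all 8 mice below an rlog value of 5, a bound that Ccl2, Ccl7 and Ccl12 passed through the obese mice and not in LFD mice, and the transformation shrinks differences most at low values. The differences from LFD, 1.04 ± 0.59 (SE) in HFD and 1.16 ± 0.66 (SE) in ob/ob mice, were each less than 2 standard errors.

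Cx3cl1, the ligand of Cx3cr1, had values of 5.10, 5.68 and 5.17 in LFD, 5.07, 6.71 and 7.31 in HFD, and 6.04 and 6.12 in ob/ob mice. HFD replicate 1 was below all LFD mice while the other 2 HFD mice were above both ob/ob mice. It was the single gene of the 9 with a lower mean in ob/ob than in HFD mice, by 0.28 ± 0.58 (SE), a difference smaller than its standard error. The differences from LFD were 1.05 ± 0.52 (SE) in HFD and 0.77 ± 0.58 (SE) in ob/ob mice. Of the proteases that release it, Adam17 differed by 0.84 ± 0.19 (SE) between the obese mean and LFD, whereas Adam10 differed by 0.03 ± 0.13 (SE). Adam17 was higher in all 5 obese mice than in all LFD mice, against 9.4% of all genes. With limma neither Adam17 nor Adam10 was called, at adjusted p-values of 0.106 and 0.902.

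Ccr2, the receptor of Ccl2, Ccl7 and Ccl12, had values of 8.57, 8.43 and 8.28 in LFD, 9.70, 10.46 and 9.65 in HFD, and 10.24 and 10.87 in ob/ob mice. The lowest obese mouse was more than 1 log2 unit above the highest LFD mouse, the widest gap among the 9 genes for HFD replicate 1 (1.13). Ccr2 was 1.51 ± 0.26 (SE) higher in HFD and 2.13 ± 0.29 (SE) higher in ob/ob mice, 2.85 and 4.39 times the LFD level on the rlog scale. For the mean of both obese groups its difference was 1.82 ± 0.23 (SE). With limma the adjusted p was 0.0598, the smallest value that any of the 15047 genes reached in that comparison and shared with 8 others.

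Ccr1, the receptor of Ccl3 and Ccl7, had values of 7.37, 7.21 and 6.84 in LFD, 8.10, 9.32 and 8.68 in HFD, and 8.86 and 9.64 in ob/ob mice. Within each obese group the mouse with the highest Ccr2 also had the highest Ccr1, and over the 8 mice both receptors had a Pearson correlation of 0.982. Ccr1 was 1.56 ± 0.34 (SE) higher in HFD and 2.11 ± 0.37 (SE) higher in ob/ob than in LFD mice.

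Cx3cr1 had values of 6.05, 6.25 and 5.82 in LFD, 6.78, 7.83 and 8.11 in HFD, and 7.48 and 9.70 in ob/ob mice. The ob/ob mice were 2.21 apart, the widest gap between them for any of the 9 genes, and replicate 1 lay within the HFD range. The ob/ob difference from LFD, 2.55 ± 0.61 (SE), was the largest of the 9 genes and place 12 from the top among all genes, but it rested on replicate 2, since without that mouse it was 1.45 and without replicate 1 it was 3.66. In HFD mice Cx3cr1 was 1.54 ± 0.55 (SE) higher than in LFD mice.

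**Figure D2:**
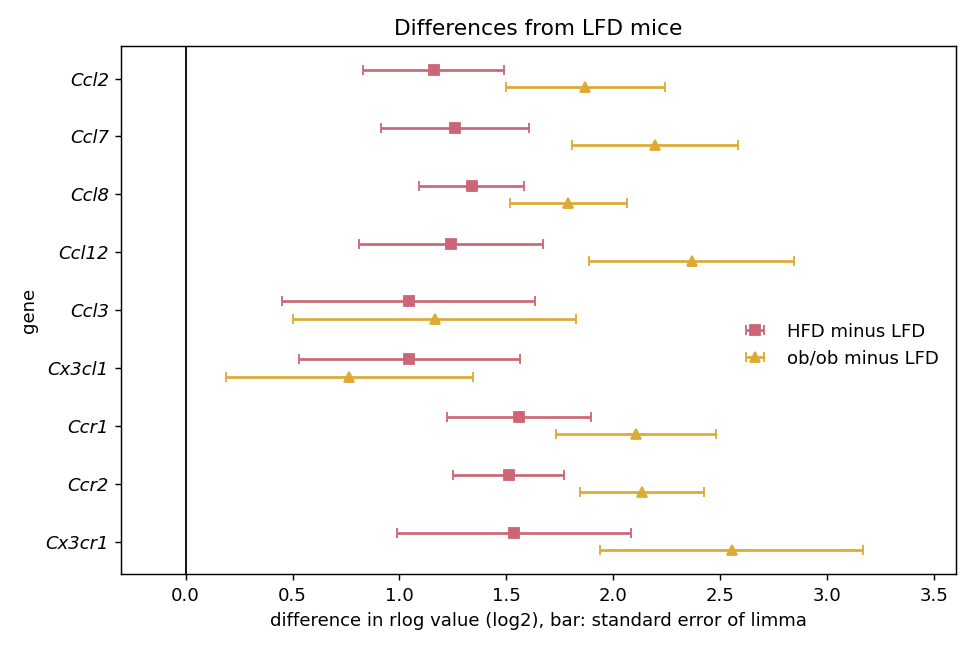
Differences in rlog value (horizontal axis, log2) of the 9 genes (vertical axis) between HFD and LFD mice (squares) and between ob/ob and LFD mice (triangles), with bars of 1 standard error from limma. All points lie right of 0, and ob/ob lies right of HFD in every gene but Cx3cl1.

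The receptors had a median difference of 1.83 between the obese mean and LFD, the ligands 1.54, and all genes together 0.041. Of the 9 genes, 7 had all obese mice above all LFD mice, Ccl3 and Cx3cl1 being the exceptions, against 9.4% of all genes. Ob/ob against HFD gave differences from −0.28 for Cx3cl1 to 1.13 ± 0.48 (SE) for Ccl12, and only Ccl7 had groups that did not overlap. The limma adjusted p-values of the 9 genes in that comparison were all 1.00 after rounding, so no ordering of the 2 obese groups was resolved in any of them.

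HFD replicate 1 was the obese mouse nearest to LFD, with the lowest obese value in 7 of the 9 genes and not in Ccl8 and Ccr2, where HFD replicate 3 was lower. When it was left out, the number of genes with a limma adjusted p under 0.05 for the obese mean against LFD went from 0 to 3326, 22.1% of all genes, and all 9 genes were among them, at adjusted p-values of 0.0113 to 0.0364. Without ob/ob replicate 1, 476 genes were called, 3.16% of all, and 7 of the 9 genes were among them, without Ccl3 and Cx3cl1. Leaving out a mouse because it lies near the other group makes groups differ more, so the calls with all 8 mice are the ones reported.

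Of the 9 genes, 7 lie in clusters of chemokine or receptor genes, and positions are given on GRCm38 with Gencode M21. Ccl2 (chr11:82035571-82037453), Ccl7 (chr11:82045712-82047525), Ccl12 (chr11:82101845-82103400) and Ccl8 (chr11:82115185-82116799) follow each other on the plus strand of chromosome 11, with Ccl11 (chr11:82057823-82062955) between Ccl7 and Ccl12. Ccl11 is eotaxin, which attracts eosinophils through Ccr3. Its values were 6.48, 6.56 and 6.35 in LFD, 6.20, 5.31 and 5.55 in HFD, and 6.34 and 5.22 in ob/ob mice, so that all 5 obese mice lay below all 3 LFD mice, the reverse of its 4 neighbours, but ob/ob replicate 1 and LFD replicate 3 were level to within rounding, a far smaller margin than those of the neighbours. The obese mean differed from LFD by −0.73 ± 0.32 (SE) and was not called (limma adjusted p = 0.197), and 9.05% of all genes had all obese mice below all LFD mice.

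Ccl3 (chr11:83647844-83649355, minus strand) lies in a second group of ligand genes further along chromosome 11 with Ccl5, Ccl9, Ccl6 and Ccl4. All of them had positive differences between the obese mean and LFD. Ccl9 and Ccl6, ligands of Ccr1, differed by 1.41 ± 0.35 (SE) and 1.27 ± 0.36 (SE). Both had all obese mice above all LFD mice, against 9.4% of all genes. For Ccl6 the margin was within rounding, with 10.55 in LFD replicate 1 and 10.56 in HFD replicate 3. Ccl4 and Ccl5 differed by 0.79 ± 0.51 (SE) and 0.60 ± 0.40 (SE), with overlapping groups like Ccl3. Ccl4, the neighbour of Ccl3, also had its highest value in HFD replicate 2, 4.78, and a low one in HFD replicate 1, 2.37.

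On chromosome 9, Ccr1 (chr9:123962124-123968692, minus strand) and Ccr2 (chr9:124101950-124113557, plus strand) lie in a receptor cluster, with Ccr3 between them. Ccr3, the eosinophil receptor of Ccl11, had its highest value in HFD replicate 1, 5.32. In that mouse most of the 9 genes had their lowest obese value. Ccr3 differed by 1.19 ± 0.35 (SE) between the obese mean and LFD. All HFD mice, at 4.53 to 5.32, lay above all LFD mice, at 2.69 to 3.63, a separation seen in 12.9% of all genes. Of the ob/ob mice, replicate 1 (4.13) lay above the LFD range and replicate 2 (3.12) within it. With limma Ccr3 was not called for the obese mean, at an adjusted p of 0.119. Cx3cr1 (chr9:119901616-120069879, minus strand) is on the same chromosome outside this cluster, and Cx3cl1 (chr8:94772009-94782427, plus strand) is on chromosome 8.

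**Figure D3:**
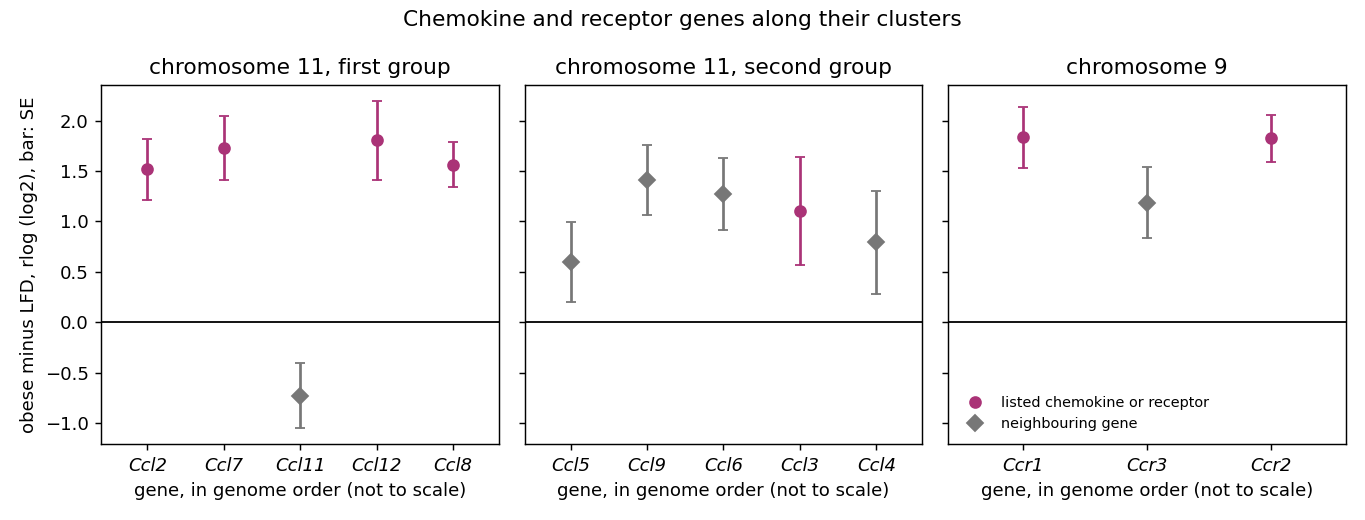
Difference in rlog value between the mean of both obese groups and LFD (vertical axis, log2, bars of 1 standard error) for genes of 3 clusters in genome order (horizontal axis, not to scale). The listed genes (circles) and their neighbours (diamonds) lie above 0 except Ccl11, at −0.73.

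Promoters were read from RefSeq on GRCm38.p6 for 7 of the 9 genes, all but Ccl2 and Ccl7. The 90 bases before the start of Ccl8 and Ccl12 are shown on the coding strand, 5′ to 3′, because both neighbours have the letters TATAAA, shown in capitals, at nearly the same distance.
Ccl8, chr11:82115095-82115184, plus strand: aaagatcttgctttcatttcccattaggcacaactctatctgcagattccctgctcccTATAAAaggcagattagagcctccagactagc
Ccl12, chr11:82101755-82101844, plus strand: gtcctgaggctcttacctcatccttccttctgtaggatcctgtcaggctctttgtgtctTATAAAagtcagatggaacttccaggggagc
The match begins at position −32 in Ccl8 and −31 in Ccl12. TATAAA on the coding strand within 50 bases before the start occurred in 3 of the 7 genes, in Cx3cl1 at position −6, and in 2.63% of all 32841 promoters of the table. In 250 bases before the start and on both strands, the NF-kappaB consensus occurred in Ccr1 alone of the 7 genes and in 7.25% of promoters, the AP-1 letters TGANTCA in 0 of 7 and in 6.75%, and the PU.1 letters GAGGAA in 5 of 7, without Ccr2 and Cx3cr1, and in 23.3%. These are matches of letters, which show no binding.

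Over the 8 mice, the 7 genes other than Ccl3 and Cx3cl1 varied together, with Pearson correlations of 0.780 to 0.983 between pairs. Ccl3 and Cx3cl1 had correlations of 0.530 to 0.800 with each other and with the rest. These correlations are descriptions over 8 mice that share group and tissue composition. Cx3cl1 and its receptor Cx3cr1 had 0.659, whereas Ccl2 and its receptor Ccr2 had 0.976.

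The genes of the whole table most like each of the 9 were looked up by Pearson correlation over the same 8 mice. For Ccl2 the nearest 5 were C1qb (0.995), Rgs10, Nrip2, C1qa and Emb (0.990), of which C1qa and C1qb encode complement chains made by macrophages. For Ccr2 they were Prcp (0.992), Cysltr1, Cd300c2, Wfdc17 and C1qb (0.984). Ccr1 was nearest to Fcgr2b (0.995), Fcer1g and Pld4, the first encoding an inhibitory receptor for immunoglobulin G and the second the signal chain of activating Fc receptors. Ccl7 was nearest to Ptafr (0.992), Mxra7 and Gpr85, Ccl12 to Gpr85 (0.994) and Itm2b, and Ccl8 to Nnmt (0.985), Clec12a and Wfdc17. Cx3cr1 was nearest to Tipin (0.993), Rab31 and Lix1l, and Ccl3 to Ssna1 (0.982), Ccdc136 and Iigp1. Cx3cl1 was nearest to Arhgap27 (0.996), Exoc3l4 and St6gal1.

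The tissue of these mice was not of even composition. The 19 acinar genes in the table, such as those of digestive enzymes, had mean rlog values of 18.90, 19.09 and 19.36 in LFD, 19.21, 17.05 and 15.18 in HFD, and 18.45 and 15.46 in ob/ob mice. HFD replicates 2 and 3 and ob/ob replicate 2 were thus low in acinar transcripts, while HFD replicate 1 was at the LFD level. In that mouse Ccr2 and Ccl8 were 1.13 and 0.99 above the highest LFD mouse, and Ccl3 and Cx3cl1 were not above the LFD range. With the acinar mean as a covariate, the difference between the obese mean and LFD went from 1.82 to 1.66 ± 0.26 (SE) for Ccr2. It went from 1.56 to 1.66 ± 0.26 (SE) for Ccl8, but from 2.04 to 1.05 ± 0.30 (SE) for Cx3cr1 and from 0.91 to 0.15 ± 0.40 (SE) for Cx3cl1. The acinar mean itself differed between the groups, so this fit separates group and acinar level poorly. Values of the remaining genes in this fit are not given here.

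Macrophage markers, like the 9 genes, were higher in the obese mean than in LFD mice, though not in step with every gene in every mouse. All 15 listed markers had positive differences between the obese mean and LFD, against 53.5% of all genes. Their median was 1.38, and none of the markers was called. In 8 of them all obese mice lay above all LFD mice, against 9.4% of all genes. Their mean rlog values were 8.62, 8.34 and 7.97 in LFD, 8.66, 9.61 and 9.37 in HFD, and 9.63 and 10.21 in ob/ob mice, and their summed level on the log2 scale was 13.5 to 14.0 in LFD, 14.2 to 15.2 in HFD and 14.9 to 15.7 in ob/ob mice. No marker was near 0, the lowest being 5.08. In bulk tissue, fewer cells of a type and less RNA per cell cannot be told apart, and likewise more cells and more RNA per cell. The 9 listed markers of classical monocytes gave means of 7.61, 7.56 and 7.30 in LFD, 7.73, 8.51 and 8.51 in HFD, and 8.03 and 8.84 in ob/ob mice. Of them, 7 had positive and 2 negative differences, with a median of 1.02. With limma, 4 were higher at an unadjusted p under 0.05, against 14.5% of all genes. The marker with the largest difference, Vcan, a matrix proteoglycan also made by fibroblasts, ranged from 6.18 to 6.70 in LFD and from 8.10 to 8.91 in obese mice, with a limma adjusted p of 0.0598, whereas Ly6c2, a surface marker of these cells, ranged from 4.38 to 5.42 in LFD and from 4.55 to 5.77 in obese mice. The 8 markers of non-classical monocytes, the cells with the most Cx3cr1, had a median difference of 0.54 and overlapping means of 5.75 to 6.13 in LFD and 5.78 to 6.86 in obese mice. Neutrophil markers were also higher in the obese mean, 9 of 9 in sign with a median of 1.29. In ob/ob mice 7 of these markers were higher and 2 lower than in LFD mice, and all 9 were lower than in HFD mice. The means of the neutrophil markers were 5.23 to 5.87 in LFD, 6.46 to 7.39 in HFD and 6.05 to 6.42 in ob/ob mice. Ly6g, Camp and Ngp were listed but had no values.

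The 9 genes were also set relative to the macrophage mean of the same mouse, with mixed outcomes. Values per mouse are given here for Ccr2, Ccr1, Cx3cr1 and Ccl2 alone. Ccr2 minus that mean was −0.05, 0.09 and 0.31 in LFD, 1.04, 0.85 and 0.28 in HFD, and 0.62 and 0.66 in ob/ob mice, so that HFD replicate 3 fell within the LFD range and the other 4 obese mice above it. Ccr1 minus the macrophage mean was −1.25, −1.13 and −1.13 in LFD, −0.56, −0.29 and −0.69 in HFD, and −0.77 and −0.57 in ob/ob mice, and here all 5 obese mice stayed above all LFD mice. Cx3cr1 minus the macrophage mean was −2.57, −2.09 and −2.15 in LFD, −1.88, −1.78 and −1.26 in HFD, and −2.14 and −0.51 in ob/ob mice, so that ob/ob replicate 1 lay within the LFD range. Ccl2 minus the macrophage mean was −3.98, −3.33 and −3.38 in LFD and −3.58 to −3.13 in obese mice, which overlapped. With the macrophage mean as a covariate, the obese differences were 1.00 ± 0.36 (SE) for Ccr2, 1.23 ± 0.43 (SE) for Ccl8 and 0.43 ± 0.30 (SE) for Ccr1, and they were 0.13 ± 0.49 (SE) for Ccl12, 0.09 ± 0.70 (SE) for Cx3cr1, −0.75 ± 0.87 (SE) for Ccl3 and −0.57 ± 0.79 (SE) for Cx3cl1. In the same fit Ccl2 and Ccl7 had obese differences of 0.57 and 0.56. The macrophage mean itself differed between the groups, so the fit separates group and macrophage level poorly.

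**Figure D4:**
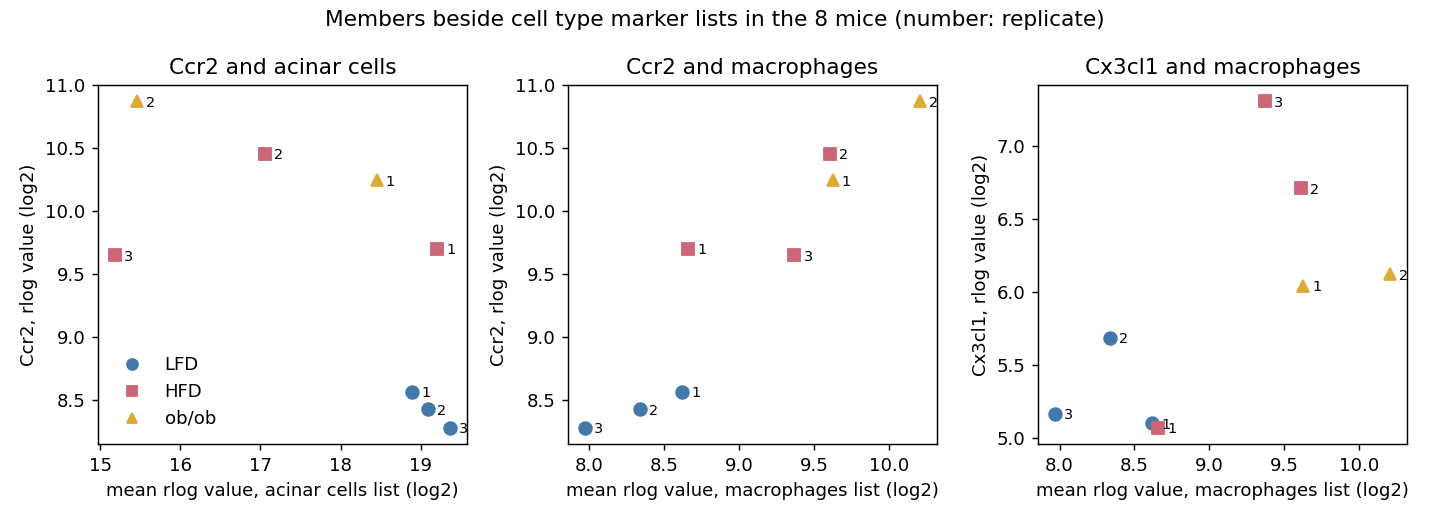
rlog values of Ccr2 and Cx3cl1 (vertical axes, log2) against the mean rlog value of the acinar or macrophage marker list (horizontal axes, log2) in the 8 mice, with the replicate number beside each point. HFD replicate 1 has an acinar mean of 19.21, at the LFD level, and a Ccr2 value above all LFD mice.

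The genes around the 9 in the same pathway were described from hand-written lists. No gene of these lists was called in the obese mean against LFD, and at an unadjusted p under 0.05, 14.5% of all genes were higher and 10.9% lower. By sign alone, 53.5% of all genes had positive differences in that comparison. Of 14 other CC ligands in the table, 9 had positive and 5 negative differences, 5 and 2 of them at an unadjusted p under 0.05, with a median of 0.64. Ccl9, described above, led, followed by Ccl17 (1.34 ± 0.38, SE) and Ccl22 (1.30 ± 0.43, SE), ligands of Ccr4 made by dendritic cells and macrophages. The most negative was Ccl21a (−0.89 ± 0.36, SE), which guides T cells and dendritic cells through Ccr7. Its values were 6.99, 8.39 and 7.12 in LFD and 6.02 to 7.38 in obese mice, and LFD replicate 2, the highest, also had the highest mean of B and plasma cell markers, 6.33 against 3.85 to 4.80 in the other mice. All 6 other CC receptors in the table had positive differences, 3 of them at an unadjusted p under 0.05, with a median of 0.74, among them Ccr3, described above, and Ccr7 (0.79 ± 0.38, SE).

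Among 12 decoy receptors and proteases that bind or cut chemokines, 9 had positive differences, 6 of them at an unadjusted p under 0.05, and the median was 0.79. The metalloproteases Mmp12 (1.70 ± 0.52, SE), Mmp9 (1.63 ± 0.40, SE) and Mmp14 (1.52 ± 0.39, SE) led, and Ccrl2, a receptor that binds but does not signal, was the most negative (−0.43 ± 0.28, SE). Of 22 genes of signalling behind these receptors in leukocytes, 21 had positive differences, 11 of them at an unadjusted p under 0.05, with a median of 0.74. The G protein chain Gng2 differed by 1.60 ± 0.38 (SE) and the exchange factor Vav1 by 1.15 ± 0.33 (SE), while Grk2, the kinase that desensitises the receptors, differed by −0.05 ± 0.18 (SE).

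All 7 growth factors and growth factor receptors of monocytes and macrophages had positive differences, 5 of them at an unadjusted p under 0.05, with the highest median of these lists, 1.27. The receptor chains Csf2rb (1.58 ± 0.35, SE) and Csf2rb2 (1.48 ± 0.47, SE) and the macrophage growth factor receptor Csf1r (1.39 ± 0.35, SE) led. Of 14 adhesion molecules with which monocytes cross the vessel wall, 13 had positive differences, 7 of them at an unadjusted p under 0.05, and the median was 0.63. The integrin chain Itgam (1.44 ± 0.31, SE), the endothelial adhesion protein Vcam1 (1.14 ± 0.39, SE) and the selectin ligand Selplg (0.92 ± 0.32, SE) led, and Cd99l2 was the most negative (−0.39 ± 0.19, SE). Medians of all 6 lists lay between 0.63 and 1.27, below the 1.73 of the 9 genes, which had been picked for their values, and above the 0.041 of all genes.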

How the data were processed

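Per the labels and the study's methods, total RNA of pancreas was extracted with Trizol and sequenced from paired ends. The authors checked reads with FastQC, quantified Gencode M18 transcripts (GRCm38.p6) with Salmon 0.11.3, summed them per gene with tximport and deposited rlog values of DESeq2 1.22.2, which are on the log2 scale. How the 15047 genes were filtered is not given in the sources used here, nor is the depth, so no counting error is given. All columns matched a mouse by name.

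Groups came from the sample labels, and replicates are different animals. Differences were fitted with limma 3.58.1 (R 4.3.3). The model held the 3 group means over all 8 mice, the variance followed a trend on expression, and p-values were adjusted over all genes. The study's DESeq2 test needs counts, which were not used here. The limma step was tested on simulated data. Sequences and positions were read with Biopython 1.88 from Gencode M21 and RefSeq tables.

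The 9 genes and all gene lists were chosen with earlier results of these data known. Genes named beside the 9 are the 3 most positive and the most negative of each pathway list, those next to the 9 in the genome, and the 3 (for Ccl2 and Ccr2, 5) most correlated genes. Adam10, Adam17 and Ly6c2 were named for their known roles outside that rule, and Vcan after its values were seen. Some genes that the rule names are counted in their lists but not reported here. The alternatives left out each mouse, the trend, the group not compared, or genes whose mean rlog value was under 5. Others used median centring, quantile normalization, array weights, a block for the replicate number, or the acinar or macrophage mean as a covariate.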

Additional observations from a re-analysis of the deposited data

How the results depend on the processing

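Of 599 differences of the 9 genes recomputed under the alternatives, 529 kept their direction and their side of an adjusted p of 0.05, 53 kept their direction and passed that threshold, and 17 changed sign. The number of genes called, 0 in every comparison with all mice, ranged over leaving out each mouse from 0 to 2812 for HFD against LFD, 0 to 89 for ob/ob against LFD, 0 to 1 for ob/ob against HFD and 0 to 3326 for the obese mean against LFD, and of the 9 genes from 0 to 9 were called. The highest counts of all but ob/ob against HFD came without HFD replicate 1, and the single gene of that comparison came without ob/ob replicate 2. With only the groups compared in the fit, 1 gene was called in HFD and 38 in ob/ob against LFD, among them Ccl8, Ccr1 and Ccr2 at a limma adjusted p of 0.0499. Array weights, which gave HFD replicate 2 a weight of 9.36 and HFD replicate 1 one of 0.273, led to 6656 calls in HFD against LFD and 4286 for the obese mean, with all 9 genes among the latter. With the acinar mean as a covariate, 1 gene was called in ob/ob against LFD, 1 in ob/ob against HFD and 1 for the obese mean. The causes of these changes were not tested.

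The sign changed with array weights in ob/ob against HFD for Ccl8 (−0.011), Ccl3 (−1.16) and Ccr1 (−0.0028), and with the acinar mean in ob/ob against LFD for Cx3cl1 (−0.030). With the macrophage mean it changed for Ccl3 and Cx3cl1 in HFD against LFD (−0.29 and −0.013), in ob/ob against LFD (−1.21 and −1.12) and for the obese mean (−0.75 and −0.57), and in ob/ob against HFD for Ccl3 (−0.92), Ccr1 (−0.24) and Cx3cr1 (−0.078). In ob/ob against HFD it also changed without single mice. Over leaving out each mouse, Ccl3 ranged from −0.51 without HFD replicate 1 to 0.84 without HFD replicate 2 and was −0.0067 without ob/ob replicate 2, Cx3cl1 ranged from −0.93 without HFD replicate 1 to 0.19 without HFD replicate 3, and Cx3cr1 from −0.090 without ob/ob replicate 2 to 2.12 without ob/ob replicate 1.

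Centring on the median of each mouse changed the split of genes at an unadjusted p under 0.05 for the obese mean from 2186 higher and 1639 lower to 1823 and 2109, and quantile normalization to 1818 and 1816. For HFD against LFD centring gave 1490 and 1588, and for ob/ob against LFD 1511 and 1377. All 9 genes stayed higher in the obese mean under both, with medians of 1.64 and 1.57. Deviations of mice with the same replicate number had correlations of −0.060, 0.113 and −0.281 for HFD with LFD, of −0.097 and 0.128 for ob/ob with LFD, and of 0.592 and 0.303 for ob/ob with HFD mice. The numbers were not taken to pair the mice, since not every pair was over 0.1 and the labels tie them to nothing shared. In the fit with a replicate block, 0 genes were called in each comparison and the median of the 9 genes was 1.75. Fitting only the groups compared gives no other value for the obese mean, which uses all 3 groups. The precision that depth gives the low values of Ccl3 is unknown.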

Other observations

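Lep, the gene changed in ob/ob mice, had rlog values of 6.20, 5.86 and 6.28 in LFD, 7.27, 7.26 and 7.31 in HFD, and 8.12 and 6.78 in ob/ob mice. All obese mice lay above all LFD mice, against 9.4% of all genes. The difference in Lep between the obese mean and LFD was 1.25 ± 0.30 (SE), with a limma adjusted p of 0.107. The 12 fibroblast and stellate cell markers had means of 8.62 to 9.07 in LFD, 9.39 to 10.16 in HFD and 9.77 to 10.40 in ob/ob mice, and 11 of them had positive differences with a median of 0.95. The 10 T and NK cell markers in the table had a median difference of 0.27 and the 10 dendritic cell markers 0.49, with overlapping means in both lists. The 13 markers of ductal and tumour epithelium had a median difference from LFD of 0.96 in HFD and −0.07 in ob/ob mice, and their lowest mean of all mice was that of ob/ob replicate 2, 8.93, the mouse with the highest Cx3cr1 value. The 9 adipocyte markers had a median difference of 0.03, the 10 endothelial markers 0.22, the 5 mesothelial markers 0.09 and the 9 B and plasma cell markers −0.47. The 12 islet markers had a median difference from LFD of −0.45 in HFD mice, where 11 were lower, and of 1.30 in ob/ob mice, where 10 were higher and 9 had both ob/ob mice above all LFD mice, against 24.1% of all genes.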
